A study of Saccharomyces cerevisiae with 3 samples.

Results

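The 6 genes described here serve the last steps of biotin synthesis, the uptake of biotin and its precursor, and the attachment of biotin to enzymes in the budding yeast Saccharomyces cerevisiae. They are BIO2, BIO3, BIO4, BIO5, VHT1 and BPL1, and they were found by symbol among the 5203 genes named on the arrays. All 6 had a spot, and 5 had a value on at least 1 array. In strain S288C, grown in rich glucose medium (YPD) at 25 °C with shaking, cultures treated with 5 mM 2-aminobenzimidazole for 2 h were set against cultures grown for the same time without treatment. Treated RNA carried Cy5 and control RNA Cy3 on each of 3 two-colour arrays, which the series describes as independent biological samples. There were 0 arrays with the dyes exchanged, so a dye effect on a gene and the treatment cannot be told apart.

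Biotin, also called vitamin H, is a cofactor of carboxylases, which carry it on a lysine. Laboratory strains of S. cerevisiae lack the first steps of its synthesis and live on biotin from the medium, or on late precursors that they can finish. VHT1 encodes the plasma membrane proton symporter that brings biotin in, and BIO5 the transporter of the precursor 7-keto-8-aminopelargonic acid. BIO3, an aminotransferase that uses S-adenosylmethionine as its amino donor, BIO4, dethiobiotin synthetase, and BIO2, a mitochondrial iron-sulfur enzyme that inserts the sulfur, turn this precursor into biotin. BPL1 is the ligase that attaches biotin to its target proteins. VHT1 and BIO5 are known to be switched on when biotin is scarce, through the factor Vhr1, and scarce iron is known to raise VHT1 through Aft1 and to lower BIO2.

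The mean ratios of both transporter genes stood well above 0 and that of the last synthesis enzyme well below it. Each value is a log2 ratio, read as treated over control because the labels list the treated RNA as the first channel. This direction is likely, and the table does not state it. A value of 1 means 2-fold higher and a value of -1 means 2-fold lower. The members were chosen by their role in biotin metabolism with their log ratios on these same arrays in view, so their values are given as a description, with no test. BIO3 and BIO5 were at least 2-fold higher on every array that had a value for them, and BIO2 was at least 2-fold lower. That makes 2 of the 5 genes with a value higher and 1 lower. Of all 5182 genes with a value on any array, 3.65% met the rule for higher and 3.51% the rule for lower.

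VHT1 (YGR065C) was the sole member measured on all arrays, with log2 ratios of 3.17 on array 1, 0.86 on array 2 and 3.27 on array 3. Arrays 1 and 3 lay close together at 9.02-fold and 9.66-fold, and array 2 stood apart at 1.81-fold. The mean was 2.43 ± 1.37 (log2, SD, n = 3), or 5.40-fold. Without array 2 it was 9.33-fold. On array 1 only 29 of the 3062 genes with a value were higher than VHT1, and on array 3 only 37 of 5158 were. On array 2, 705 of 5044 genes were higher, or 14.0%.

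BIO5 (YNR056C) had log2 ratios of 2.47 on array 2 and 2.09 on array 3, and no value on array 1. Its mean was 2.28 ± 0.27 (log2, SD, n = 2), or 4.86-fold, and the arrays repeated each other more closely than they did for VHT1. On array 2 only 44 genes were higher than BIO5, and on array 3, 154 genes were. The order of the transporter genes thus differed between the arrays: VHT1 was 1.61 below BIO5 on array 2 on the log2 scale and 1.18 above it on array 3. Differences between genes here are differences between ratios and say nothing of their levels, since the table holds no intensities.

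Of the synthesis enzymes, BIO2 (YGR286C) had log2 ratios of -1.52 on array 2 and -2.19 on array 3, again with no value on array 1. The mean was -1.86 ± 0.47 (log2, SD, n = 2), or 3.63-fold lower. It was among the lowest genes of both arrays, with 224 genes lower on array 2 and 38 on array 3. BIO3 (YNR058W) had a single value, 1.59 on array 3 (3.01-fold), where 283 genes were higher, and so has no replicate check. BIO4 (YNR057C) had no value on any array and was 1 of 21 named genes of which this was true. The pathway's enzymes therefore did not share a direction on the one array that measured 2 of them, BIO3 lying above 0 and BIO2 below it. The log2 ratio of BIO5 exceeded that of BIO2 by 3.99 on array 2 and by 4.29 on array 3, while that of VHT1 exceeded it by 2.38 and 5.47.

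BPL1 (YDL141W), the ligase, had log2 ratios of -0.13 on array 2 and 0.48 on array 3. Its mean was 0.18 ± 0.43 (log2, SD, n = 2), smaller than its own spread. On array 2, 59.1% of genes were higher than BPL1, and on array 3, 27.4% were.

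**Figure D1:**
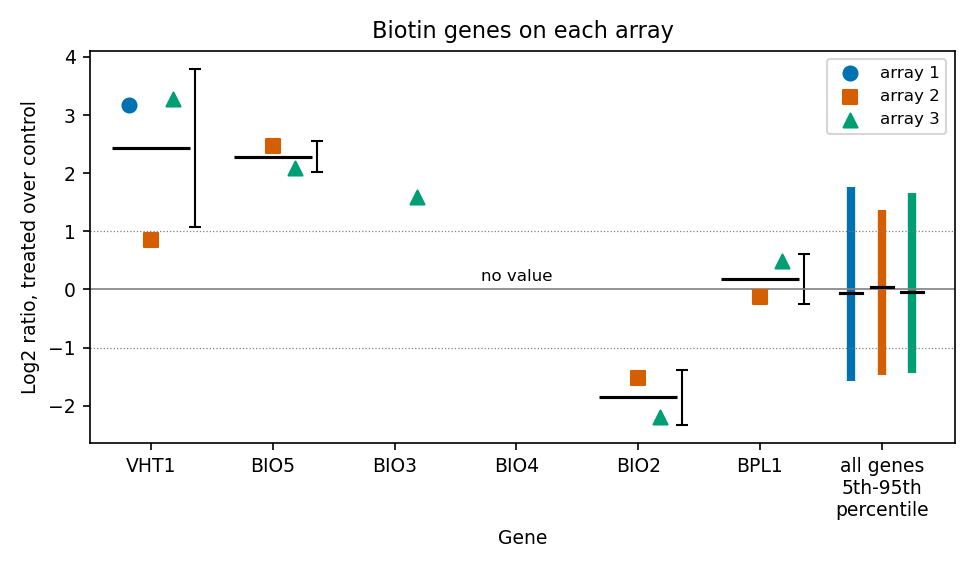
The log2 ratio of treated over control of each biotin gene on each array (symbols), with the mean (horizontal line) and SD (bar to its right) where at least 2 arrays had a value, and at the far right the 5th to 95th percentile (coloured bar) and median (black line) of all genes on each array. Dotted lines mark 2-fold. VHT1 and BIO5 lie above 0 on each array with a value and BIO2 below it, VHT1 is lowest on array 2 at 0.86, and BIO4 has no value.

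The gaps in these values were of the table as a whole as well as of these genes. Array 1 lacked a value for 5 of the 6 members, and for 41.1% of all 5203 named genes. Its title also carries a letter H, unexplained in the labels, that the titles of arrays 2 and 3 lack. Arrays 2 and 3 lacked one for 3.06% and 0.865% of genes. Among the 1982 genes that had values on arrays 2 and 3 but not on array 1, as BIO2, BIO5 and BPL1 did, 2.27% were at least 2-fold higher on both and 2.98% at least 2-fold lower. Of the 116 genes with a value on array 3 alone, as BIO3 had, 17.2% were at least 2-fold higher there and 6.03% at least 2-fold lower. Of the 3039 genes measured on all arrays, as VHT1 was, 3.78% were at least 2-fold higher on each and 3.75% at least 2-fold lower. Across the 3039 genes with values on all arrays, which are not independent replicates, the Pearson r was 0.748 between arrays 1 and 3 (Spearman rho 0.683), 0.52 between arrays 1 and 2 (rho 0.529) and 0.468 between arrays 2 and 3 (rho 0.48). The part of the missing values and of array 2 in the members' values was not tested.

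Genes tied to biotin by their known roles were tested with limma over all 3039 genes that had a value on every array. In that test 8.36% of genes were higher and 9.64% lower at an adjusted p below 0.05 (Benjamini-Hochberg). The 7 lists held 69 genes, of which 61 were matched by name to an annotated spot and 48 were tested. Of these 48, 9 rose, 2 fell and 37 did not pass, with a median log2 ratio of 0.38, against -0.04 over all genes tested. The Aft1 iron regulon held 22 of the 48 and 6 of the 9 that rose, with a median of 0.90. Medians of the other lists ran from -0.17 to 0.43. Without array 1, and likewise without array 3, limma called 0 of the 3039 genes, though 635 and 715 of them had an unadjusted p below 0.05, so no call given here stood when either of these arrays was left out.

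Of the enzymes that carry biotin, 1 of 2 tested rose, beside 8.36% of all genes tested. PYC1, a pyruvate carboxylase, had log2 ratios of 1.05, 0.93 and 2.27 on arrays 1, 2 and 3, with a mean of 1.42 ± 0.74 (SD, n = 3; adjusted p = 0.0329, limma). It lay above 0 on all arrays, with array 3 apart from the others. ARC1, a biotin-carrying cofactor of tRNA synthetases, stood at -0.67 ± 0.18 and did not pass (adjusted p = 0.117, limma). HFA1, the mitochondrial acetyl-CoA carboxylase, had values on arrays 2 and 3 alone, which lay on opposite sides of 0 at -1.01 and 1.22. PYC2, ACC1 and DUR1,2 were not analysed here.

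Neither factor of the vitamin H response passed. VHR1, the activator of VHT1 and BIO5, had log2 ratios of 0.62, 0.25 and 1.00, all above 0, and a mean of 0.62 ± 0.38 (SD, n = 3; adjusted p = 0.156, limma). VHR2, its relative, stood at 0.24 ± 0.39 (adjusted p = 0.577, limma).

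VHT1 belongs to the allantoate permease family, and 1 of its 4 other tested members rose, beside 8.36% of all genes tested. YCT1, a cysteine transporter, had log2 ratios of 2.45, 1.37 and 2.40 on arrays 1, 2 and 3, with a mean of 2.07 ± 0.61 (SD, n = 3; adjusted p = 0.013, limma). Like VHT1 it was lowest on array 2, though by a smaller distance. The vitamin transporters of the family did not pass: FEN2, for pantothenate, stood at -0.43 ± 0.47 and TNA1, for nicotinate, at 0.15 ± 1.04. SOA1, a transporter of sulfur compounds, stood at 0.38 ± 0.22 and did not pass either. Of the members without a value on array 1, the putative permease gene THI73 had 0.80 and 1.80 on arrays 2 and 3, and the allantoate permease gene DAL5 had 0.33 and -0.23. SEO1 had 1.08 on array 3 alone.

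In the S-adenosylmethionine list 5 of 6 genes were tested. Of these, 1 rose and 1 fell, beside 8.36% and 9.64% of all genes tested. The genes of the list make, move and recycle S-adenosylmethionine, the amino donor of the BIO3 reaction. SAM3, the permease that takes it up, had log2 ratios of 2.55, 0.88 and 2.37 on arrays 1, 2 and 3, with a mean of 1.93 ± 0.92 (SD, n = 3; adjusted p = 0.0208, limma). SAH1, the hydrolase of S-adenosylhomocysteine, had -2.16, -0.89 and -1.88, with a mean of -1.64 ± 0.66 (SD, n = 3; adjusted p = 0.0213, limma). In each of these genes arrays 1 and 3 lay farther from 0 than array 2. The synthetase genes SAM1 and SAM2 did not pass, at -0.17 ± 0.33 and -0.52 ± 0.66. Nor did SAM4, a methyltransferase that uses the compound, at 0.22 ± 1.44. PET8 (also SAM5), its mitochondrial carrier, had 0.36 and 1.08 on arrays 2 and 3.

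**Figure D2:**
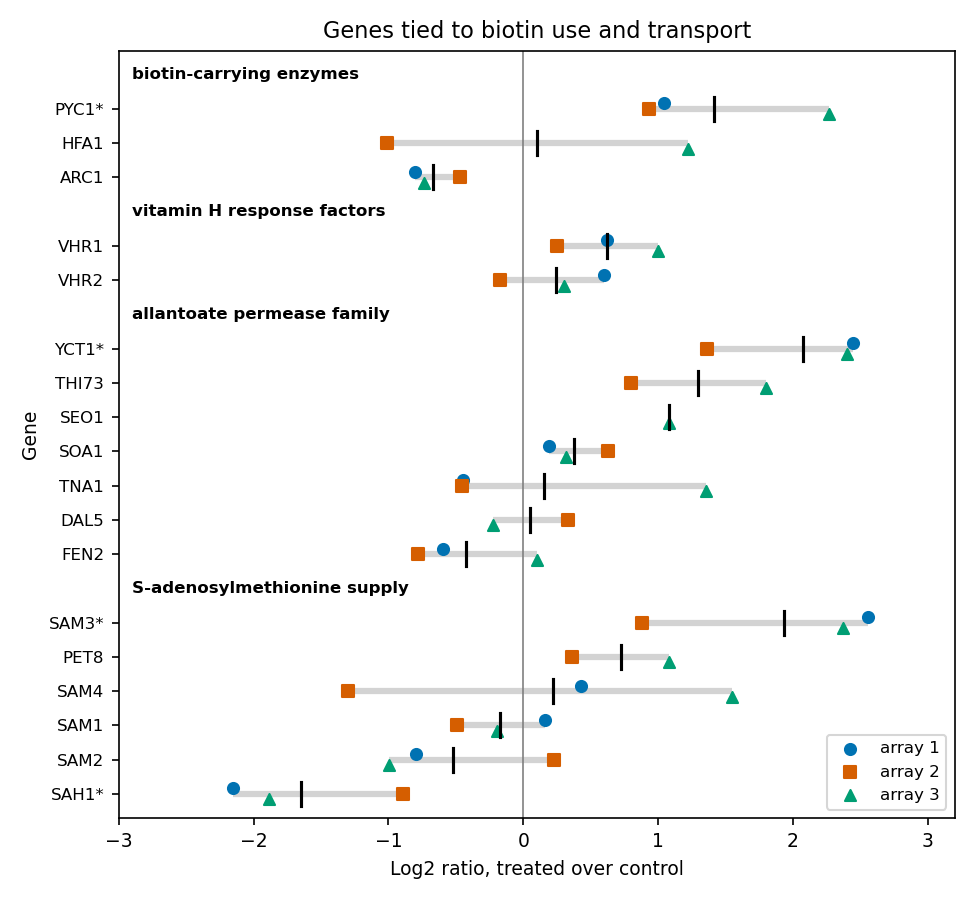
The log2 ratio of treated over control for genes tied to biotin use, its regulation, VHT1's transporter family and S-adenosylmethionine supply, with 1 symbol per array, a black tick at the mean and a grey bar over the range; asterisks mark genes past the adjusted p of 0.05 in limma. YCT1, SAM3 and PYC1 lie above 0 and SAH1 below 0 on all 3 arrays. VHR1 and SOA1 also lie above 0 and ARC1 below 0 on all 3, but they did not pass.

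BIO2 depends on the mitochondrial machinery that builds iron-sulfur clusters. Of 12 tested genes of that machinery 1 rose, beside 8.36% of all genes tested. ISU1, a scaffold protein on which the clusters are built, had log2 ratios of 1.95, 1.08 and 1.81 on arrays 1, 2 and 3, with a mean of 1.62 ± 0.47 (SD, n = 3; adjusted p = 0.0174, limma). The other 11 did not pass, and the median of the 12 was 0.19. ISA1, which matures enzymes of the kind to which BIO2 belongs, had 1.23, -1.10 and 1.25, with arrays 1 and 3 almost equal and array 2 on the other side of 0. It did not pass with all arrays (adjusted p = 0.527, limma) and did without array 2 (adjusted p = 0.0212, limma). The fit without array 2 called 373 of all genes higher, against 254 with all arrays. ISA1 was named after its values were seen, and array 2 is the array on which it differed. Its pass without that array is therefore a description and no evidence of a rise. Lipoate synthesis also depends on such an enzyme. Of 2 tested lipoate genes 0 passed in limma, where 8.36% of all genes tested were higher and 9.64% lower. Neither had an unadjusted p below 0.05. GCV3, a lipoate-carrying protein, stood at -0.15 ± 0.60. LIP5, the other gene tested and named after its values were seen, had 0.45, -0.76 and 0.29 on arrays 1, 2 and 3. The ligase gene LIP2 was not tested and had 0.62 and 0.26 on arrays 2 and 3.

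In the Aft1 iron regulon, to which VHT1 is known to belong, 6 of 22 tested genes rose and 1 fell, and the median was 0.90. Over all genes tested, 8.36% rose and 9.64% fell. FIT2, a cell wall protein that holds siderophores, had log2 ratios of 2.41, 5.82 and 2.72 on arrays 1, 2 and 3. ENB1, the enterobactin transporter gene, had 1.87, 2.67 and 1.09, and FRE2, a ferric reductase gene, had 1.22, 1.57 and 1.15. All 3 were highest on array 2, where VHT1 was lowest, and passed in limma with adjusted p-values of 0.016, 0.0186 and 0.0217. ISU1, which is in this list too, was lowest on array 2 as VHT1 was. FRE1, another ferric reductase gene, fell to -1.17 ± 0.45 (SD, n = 3; adjusted p = 0.0355, limma). TIS11, which promotes the decay of mRNAs of iron-using proteins and was named after its values were seen, stood at 1.11 ± 0.57. It passed with all arrays (adjusted p = 0.0477, limma) but not without array 2 (adjusted p = 0.0905, limma). MRS4, the last of the 6 and likewise named after its values were seen, had 1.05, 1.01 and 0.98 on arrays 1, 2 and 3. It passed with all arrays (adjusted p = 0.0379, limma) and without array 2 (adjusted p = 0.043, limma).

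Of the 22 tested genes of this regulon, 18 (81.8%) had their highest value on array 2, against 34.4% of all 3039 genes, and 3 (13.6%) had their lowest there, against 37.6%. VHT1 had its lowest there. These are counts on the same 3 arrays, given with no test, and whether VHT1 differs from the regulon in its response was not tested. BIO5 was 0.38 higher on array 2 than on array 3 on the log2 scale, and BIO2 was 0.67 higher there.

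**Figure D3:**
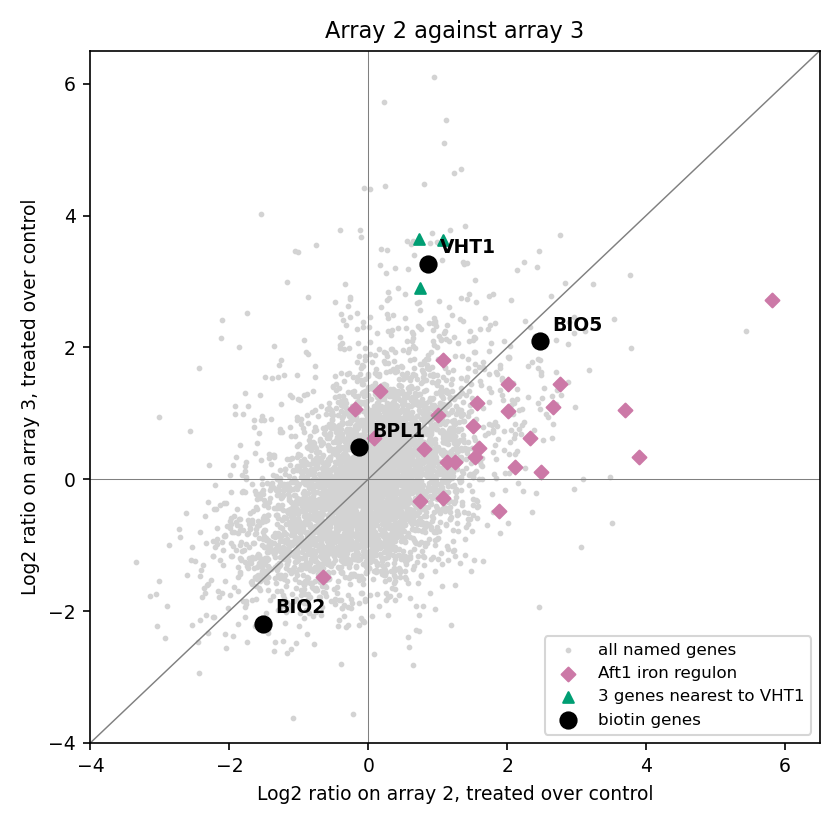
The log2 ratio of treated over control on array 2 (horizontal axis) and on array 3 (vertical axis) for all named genes with both values (grey), with the Aft1 iron regulon (diamonds), the 3 genes nearest to VHT1 in pattern (triangles) and the 4 biotin genes measured on both arrays (black circles); the slanting line marks equal values. VHT1 lies well above that line, BIO5 just below it, and most of the iron regulon below it.

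Nearness in pattern was measured as the root mean square difference of the log2 ratios over the arrays on which a member had a value. Over 3 arrays and 3038 genes, the nearest to VHT1 were YLR152C, an uncharacterised gene, at 0.31, HOS4, a subunit of a histone deacetylase complex, at 0.33, and PCL5, a cyclin that promotes the breakdown of Gcn4, at 0.34. PCL5 had log2 ratios of 3.60, 0.74 and 3.64 on arrays 1, 2 and 3, high on the same arrays as VHT1. For the other members only arrays 2 and 3 could be compared, over 5017 genes, so that nearness rests on 2 values. HXT5, a hexose transporter gene, was nearest to BIO5 at 0.08, followed by URA10, a minor orotate phosphoribosyltransferase gene, at 0.17 and YOR289W at 0.18. Nearest to BIO2 were ARR2, the arsenate reductase gene, at 0.06, and NOP56 and NAN1, both of ribosome assembly, at 0.08 each. ARG81, SEG1 and PRP2 were nearest to BPL1, at 0.01, 0.02 and 0.02.

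BIO5, BIO4 and BIO3 lie side by side on chromosome XIV, while VHT1 and BIO2 lie on chromosome VII and BPL1 on chromosome IV. The genes at either end of the BIO cluster did not pass in limma. HOL1, a transporter gene, beside BIO5, had log2 ratios of 1.46, -0.39 and 0.61 on arrays 1, 2 and 3. MNT4, a putative mannosyltransferase gene beside BIO3, had 0.73, 0.64 and 0.58, closely alike on all arrays. Both lay below BIO5 on each array where it had a value, and the log2 ratio of BIO3 on array 3 was above both. Beside BIO2, ZUO1, a ribosome-associated chaperone gene, fell to -1.34 ± 0.48 (SD, n = 3; adjusted p = 0.0263, limma), and IMA1, an isomaltase gene on its other side, had 0.90 and 0.76 on arrays 2 and 3. The neighbours of VHT1 were SPT4, a transcription elongation factor gene, at 0.44 ± 0.51 (adjusted p = 0.333, limma), and GID10, a subunit of a ubiquitin ligase, with 2.10 and 0.63 on arrays 2 and 3. Unlike VHT1, GID10 was higher on array 2 than on array 3. CRD1, the cardiolipin synthase gene, and RPO21, the largest subunit of RNA polymerase II, flank BPL1 and did not pass, at 0.80 ± 0.35 and -0.41 ± 0.50.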

How the data were processed

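The authors deposited 1 log ratio per spot and array, taken here as log2. Per the labels, LOWESS normalisation used the spots flagged 0. The background correction, the scanner and its software were not given in the sources used here. Log base, any centring beyond LOWESS and the direction stay unknown in the table. Base 10 would make the highest value, 6.89, a ratio of 7829460, too large for a scanner, so base 2 was taken and a natural log stays possible. Were the ratio control over treated, every sign would turn. Array medians over named genes were -0.058, 0.034 and -0.044. Depth has no counterpart here, and the number of arrays limits precision.

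Of 6272 spots, 964 had no single gene symbol in the platform annotation and were left out, and 5308 had 1. Identifiers of 5304 of these were in the RefSeq table of assembly R64, which gave current symbols and neighbours. Spots of a gene were averaged (88 genes had more than 1), and each member had 1 spot. Genes with a value on all 3 arrays were fitted in limma 3.58.1 under R 4.3.3. The mean ratio was tested against 0 (eBayes, two-sided, Benjamini-Hochberg over 3039 genes, threshold 0.05, prior degrees of freedom 5.31). This fit was checked on simulated data, drawn without any effect shared by the genes of an array. That check cannot show how such an effect would move the calls. The members, lists and tests were chosen with earlier results of these data known. Named were the members, every gene of the first 4 lists with a value, in the other lists the up to 4 highest and 4 lowest passing genes (with none, the 2 largest absolute means), the 3 genes nearest in pattern to each member, and the neighbours on the chromosome. No sequences were used here, so the planned motif search was not run. Alternatives were centring, scaling, robust variance, array weights, genes on at least 2 arrays, a threshold of 0.01, leaving out each array, a natural log reading and the first spot of a gene.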

Additional observations from a re-analysis of the deposited data

How the results depend on the processing

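The number of members at least 2-fold higher on every array with a value ran from 1 to 3 when an array was left out. It was 1 without array 3, the sole array with a value for BIO3, and 3 without array 2, when VHT1 also met the rule. With all arrays, 3.65% of all 5182 genes with a value met the rule for higher and 3.51% the rule for lower. These shares were not computed with an array left out. The number at least 2-fold lower was 1 under each of centring, scaling and leaving out any array. Leaving out an array gave means of 2.01 to 3.22 for VHT1. BIO5, BIO2 and BPL1 had values on arrays 2 and 3 alone, so leaving out either array gave back the single value of the other. These ran from 2.09 to 2.47 for BIO5, from -2.19 to -1.52 for BIO2 and from -0.13 to 0.48 for BPL1. Only the values of BPL1 differed in sign. Read as natural logs, the mean log2 ratios became -2.68 for BIO2, 2.30 for BIO3, 3.29 for BIO5 and 3.51 for VHT1. VHT1 would then be 11.4-fold higher in place of 5.40-fold. This reading multiplies every value by the same positive factor, so it cannot change a sign. Among all genes, leaving out an array gave 0 to 373 genes higher and 0 to 366 lower in limma. Among the 48 tested genes of the lists it gave 0 to 9 higher and 0 to 2 lower, the 0 arising without array 1 or without array 3. At an unadjusted p below 0.05 those 2 fits had 11 and 15 of the 48 related genes higher and 2 and 2 lower, beside 288 and 304 of all 3039 genes higher and 347 and 411 lower. A threshold of 0.01 left 23 genes higher and 13 lower, and 0 related genes in either direction. With genes on at least 2 arrays, FIT1, HMX1 and CCC2 were also higher and TIS11 was not (adjusted p = 0.0542, limma). SIT1 passed with centred arrays or array weights (adjusted p = 0.0474 and 0.0398, limma; 0.0518 with all arrays as deposited). Each ratio already pairs a treated with a control culture within its array, and with 1 group of ratios no further replicate block could be fitted. Without intensities, whether a member's spot was near background is unknown.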
